A study of Mus musculus with 4 samples.

Results

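Carbonic anhydrases are described here through 5 of the 16 family genes in the gene table of 28694 genes, namely Car1, Car2, Car4, Car8 and Car12, which were found by symbol, each on 1 row. Their levels were read from single-cell RNA counts of sorted mouse intestinal epithelium. The comparison was between the distal colon (DC, 2 libraries) and section 8 of the small intestine (Si8, 2 libraries). All libraries came from RedMUC298trTg mice 6 to 8 weeks old, a strain whose goblet cells, the mucus-secreting cells of the gut, carry an mCherry reporter, with no other genotype or treatment named. Living cells had been sorted on the mCherry signal, with a C57Bl6 mouse as the negative control, and whether cells without the signal went into a library is not stated. How many mice stand behind a library is not given, so p-values between regions measure the spread between libraries, which may be technical. Those between groups of cells compare sums of the same libraries, with library as a block. They measure the spread left after that block. For both kinds of p-value, edgeR moderates the spread of a gene toward that of all genes.

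Carbonic anhydrases interconvert carbon dioxide and water with bicarbonate and protons. In the gut they supply the bicarbonate and protons that ion exchangers carry across the epithelium, and colonocytes near the surface are a known site of the cytosolic forms. Car1 and Car2 encode cytosolic enzymes. Car4 encodes an enzyme held on the outer face of the membrane by a lipid anchor, and Car12 a transmembrane enzyme with its active site outside the cell. Car8 encodes a related protein without the catalytic activity, known as a partner of the inositol trisphosphate receptor.

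By Ensembl identifier in GENCODE M21 (GRCm38, the same assembly as mm10), Car1 (ENSMUSG00000027556) lies at chr3:14766216-14808368 on the minus strand and Car2 (ENSMUSG00000027562) at chr3:14886273-14900770 on the plus strand. Car3 (chr3:14863512-14872523) stands between them, and Car13 (chr3:14641727-14663002) on the far side of Car1. Car4 (ENSMUSG00000000805) lies at chr11:84957786-84966044 and Car12 (ENSMUSG00000032373) at chr9:66713686-66766845, both on the plus strand, and Car8 (ENSMUSG00000041261) at chr4:8143362-8239041 on the minus strand. All 5 are annotated as protein-coding. Promoter sequence was at hand for 2 of the 5 members, Car4 and Car12. These encode the members that act at the cell surface, and the 250 bases before each RefSeq start (GRCm38.p6), plus strand, at chr11:84957504-84957753 and chr9:66713436-66713685, are shown so that the measured genes can be placed beside their upstream DNA. Both strands were searched for 4 short motifs of transcription factor families known in gut epithelium, and capitals mark a match. For the CDX family the letters searched were TTTAT. For the HNF4 family the letters were CAAAGT. For the GATA family the letters were AGATAA. For the KLF family the letters were CACCC.
Car4: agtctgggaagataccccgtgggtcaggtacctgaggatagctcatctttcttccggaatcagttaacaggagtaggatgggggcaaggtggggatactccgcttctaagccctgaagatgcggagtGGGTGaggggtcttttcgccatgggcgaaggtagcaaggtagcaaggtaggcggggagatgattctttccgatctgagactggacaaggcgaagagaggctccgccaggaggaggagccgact
Car12: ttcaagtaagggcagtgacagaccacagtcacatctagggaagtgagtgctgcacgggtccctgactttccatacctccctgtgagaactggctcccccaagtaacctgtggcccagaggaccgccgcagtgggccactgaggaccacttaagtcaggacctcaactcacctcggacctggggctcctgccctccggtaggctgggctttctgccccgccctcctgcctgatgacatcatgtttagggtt
The Car4 window held 1 match, to the KLF letters read on the reverse strand, so that no matches overlapped. The Car12 window held none of the 4. Among 32851 promoter windows of this length, the CDX letters were found in 37.3%, those of HNF4 in 12.6%, of GATA in 9.99% and of KLF in 52.0%. Neither window overlapped a GENCODE M21 exon, and GC content was 56.4% for Car4 and 59.2% for Car12.

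Per library there were 1937 and 5098 barcodes in DC and 1536 and 2256 in Si8, at medians of 12162.5 to 21127 UMIs (unique molecular identifiers, 1 per captured transcript). After filtering, 10243 cells in 12 clusters remained. Between any pair of libraries, 1 to 16 barcodes were shared. Clusters 1, 2, 5, 7 and 8 were goblet-like (1117, 2368, 1141 and 1144 cells per library), 4 and 9 absorptive-like (219, 991, 127 and 310 cells) and 3, 6 and 10 cycling-like. Within the absorptive-like class, cluster 4 (led by Gsdmc4, Gsdmc2 and Gsdmc3) held 79.5% and 80.5% of the cells in DC but 58.3% and 49.7% in Si8, and cluster 9 (led by Ceacam20, Dpep1 and Prss30) the rest. Cluster 8 (led by Saa1, Ido1, Slfn4 and Mxd1, with Clca1 and Fcgbp) made up 10.4% and 4.77% of the goblet-like class in DC, and 25.7% and 9.27% of it in Si8. Its name was weakly held, as its 10 top genes held 2 goblet markers and 2 of another class. With each region clustered apart, the clusters led by such genes (Slfn4 and Saa1 in DC, Ido1 and Saa1 in Si8) took no class name. The labels call the cells goblet cells, and the goblet marker Muc2 stood at 2046 to 9030 CPM (counts of a gene per 1000000 counts of the sum) in the absorptive-like clusters as well. No carbonic anhydrase took part in clustering, but clusters were drawn from other genes of the same cells, so a contrast between clusters describes how far a member follows that division.

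The 5 members split by region. Car1 and Car2 were colonic, Car8 and Car12 were higher in the small intestine, and Car4 was present in both. Summed over all kept cells of a library and scaled to CPM, all 5 members passed the test of DC against Si8, beside 24.9% of the 13081 genes tested (edgeR quasi-likelihood test, Benjamini-Hochberg adjusted p under 0.05). In goblet-like cells 4 of the 5 passed, beside 42.2% of 11927 genes, and in absorptive-like cells 5 of 5, beside 33.7% of 10720 genes. The members had been chosen with earlier results of these data known, so these counts are descriptions and no independent result. In DC, 12.9% of genes were called higher and 12% lower over all cells, 20.4% and 21.8% in goblet-like cells and 17.1% and 16.6% in absorptive-like cells. With library totals as the only scaling these shares were 31.6% and 7.66%, 54.2% and 10.4%, and 25.1% and 11.8%, while the direction and the call of each member stayed as given. The sums cover 3' counts, so the members' levels are set side by side between samples and not between genes.

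**Figure D1:**
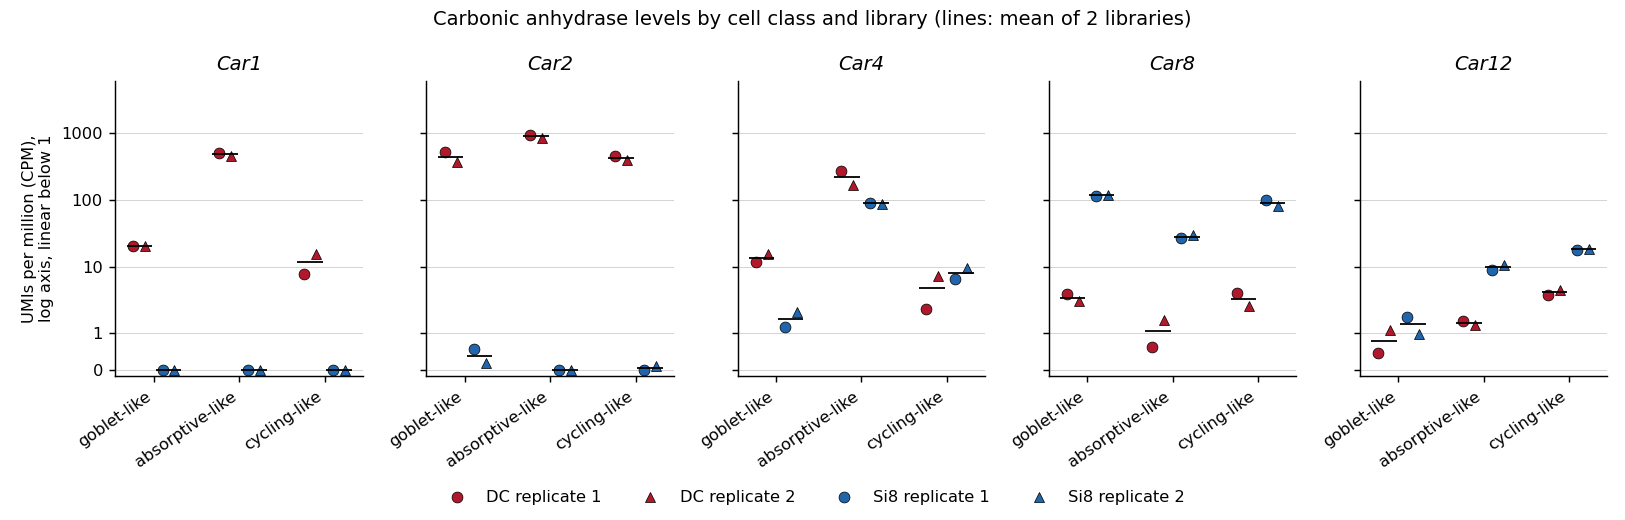
CPM (log axis, linear below 1) of each member in goblet-like, absorptive-like and cycling-like cells, 1 point per library and a line at the mean of 2 libraries. Car1 and Car2 stand at or near 0 in every Si8 sum, Car8 is higher in both Si8 libraries in each class, and Car4 is highest in absorptive-like cells of both regions.

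Car1, a cytosolic enzyme best known from red cells and colonocytes, was read only in the colon. Over all kept cells it stood at 74.0 and 112 CPM in DC 1 and DC 2 and at 0 in both Si8 libraries. No UMI of Car1 was found in any of the 3688 kept Si8 cells, which allows up to 0.0813% of cells with a UMI, nor in any of the 3792 Si8 barcodes before filtering. Counted against a floor of 3 UMIs over both Si8 libraries, Car1 was at least 2411-fold higher in DC (adjusted p = 0.000358). In goblet-like cells it stood at 20.2 and 20.4 CPM in DC, at least 260-fold above the floor (adjusted p = 6.32e-05). In absorptive-like cells it stood at 496 and 458 CPM, at least 1594-fold above it (adjusted p = 1.44e-07). The regions did not overlap in any of these sums. Intervals and floors given here cover counting error only.

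Car2, the fast cytosolic enzyme found in most epithelia, was the broadest of the colonic members. It stood at 540 and 483 CPM over all DC cells, and at 0.393 and 0.115 CPM in Si8, a ratio of mean CPM of 2017 (log2 fold change 10.80 ± 0.47 SE, adjusted p = 0.00019). In goblet-like cells the levels were 512 and 372 CPM in DC and at 0.587 and 0.187 CPM in Si8 (9.68 ± 0.37 SE, adjusted p = 2.12e-05). In absorptive-like cells they were 938 and 854 CPM in DC, while none of the 437 Si8 cells held a UMI, which gives a difference of at least 2995-fold (adjusted p = 1.33e-07). In DC, 88.9% and 85.2% of goblet-like cells and 97.7% and 99.1% of absorptive-like cells held at least 1 Car2 UMI, at median depths of 12178 and 10489 UMIs and of 15094 and 13597 UMIs. In cluster 8, where the level was lowest, the share was 33.6% and 34.5%, at 4080.5 and 4164 UMIs. Cut to 2000 UMIs per cell, which left out no cell, these shares were 56.3% and 45.9% in goblet-like cells and 78.1% and 76.6% in absorptive-like cells.

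The Car2 UMIs in Si8 numbered 16, in 10 cells. Of these, 9 fell in 4 cells of cluster 5 in Si8 1, and no cell held more than 4. None of the 10 barcodes was also present in a DC library. Among the 10 cells, 3 held at least 3 UMIs of the 18 immune markers, against 52 of the other 3678 Si8 cells (1.41%). The part of immune transcripts in these UMIs was not tested.

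Car8, the non-catalytic relative, showed the opposite pattern. Over all cells it stood at 99.4 and 86.7 CPM in Si8 and at 3.54 and 2.53 CPM in DC, 30.7-fold higher in Si8 by the ratio of mean CPM (log2 fold change, DC minus Si8, of -5.38 ± 0.24 SE, adjusted p = 0.000195). Goblet-like cells held 112 and 120 CPM in Si8 and 3.84 and 3.02 CPM in DC (-5.63 ± 0.16 SE, adjusted p = 1.07e-05). Absorptive-like cells held 26.6 and 29.5 CPM in Si8 and 0.618 and 1.56 CPM in DC (-4.59 ± 0.29 SE, adjusted p = 3.03e-06). A Car8 UMI was found in 52.0% and 72.3% of goblet-like cells in Si8 and in 4.30% and 2.83% in DC, at median depths of 16877 and 18717 and of 12178 and 10489 UMIs. Cut to 2000 UMIs per cell, these shares came to 15.1% and 21.5% for Si8, and to 0.358% and 0.549% for DC.

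Car12, the transmembrane enzyme, was higher in Si8 and low in both regions. Over all cells it stood at 5.57 and 8.81 CPM in Si8 and at 1.83 and 2.48 CPM in DC (-2.13 ± 0.30 SE, adjusted p = 0.00571). Absorptive-like cells held 8.88 and 10.6 CPM in Si8 and 1.55 and 1.34 CPM in DC, from 102 and 23 UMIs (-3.03 ± 0.33 SE, adjusted p = 0.000104). In goblet-like cells the Si8 levels of 1.76 and 0.983 CPM and the DC levels of 0.461 and 1.13 CPM overlapped, and the difference did not pass (-1.19 ± 0.52 SE, adjusted p = 0.112).

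Car4, the lipid-anchored surface enzyme, was the member whose regional difference turned with the cells summed. Over all cells it stood at 39.7 and 44.9 CPM in DC and at 10.4 and 17.3 CPM in Si8 (log2 fold change 1.20 ± 0.23 SE, adjusted p = 0.016; without DC 2 it was 1.10, adjusted p = 0.084). Goblet-like cells held 11.8 and 15.4 CPM in DC and at 1.23 and 2.06 CPM in Si8 (2.51 ± 0.28 SE, adjusted p = 0.000902). Absorptive-like cells held 268 and 168 CPM in DC and at 89.2 and 87.8 CPM in Si8 (1.07 ± 0.21 SE, adjusted p = 0.00375). The libraries of the regions did not overlap in any of the 3.

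The absorptive-like sum held opposite differences in clusters 4 and 9 of the joint clustering. Clustered apart, Si8 cells gave 1 absorptive-like cluster of 404 cells, led by Fabp6. DC cells clustered apart gave absorptive-like clusters led by Gsdmc4, by Hao2 and by Tgm3. Whether clusters 4 and 9, or goblet-like cluster 8, hold matched states in both regions was not tested. In cluster 9 alone, Car4 stood at 2337 and 1160 CPM in DC against 101 and 112 CPM in Si8 (3.91 ± 0.38 SE, adjusted p = 1.76e-05, beside 18.4% of genes called). In cluster 4 alone, it stood at 3.84 and 8.03 CPM in DC against 83.7 and 65.1 CPM in Si8 (-3.58 ± 0.25 SE, adjusted p = 1.51e-08, beside 33.2% of genes called). The contrast of cluster 9 with cluster 4 differed between regions by 7.19 ± 0.29 SE (adjusted p = 2.53e-46, beside 7.51% of genes called). The fit of these 2 clusters left 2 residual degrees of freedom, so its very small p-values rest on spread shared across genes. In goblet-like cells without cluster 8, the Car4 difference was 1.43 ± 0.48 SE (adjusted p = 0.0463, beside 44.1% of genes called), and in cluster 8 alone it was 6.32 ± 0.51 SE (adjusted p = 1.01e-05, beside 15.3%), on 293 UMIs in DC and 8 in Si8. In clusters 1, 2 and 5 alone, it was 1.07 (adjusted p = 0.159), 1.90 (adjusted p = 0.00655) and 1.89 (adjusted p = 0.0486), beside 36.3%, 41.3% and 21.9% of genes called. Cluster 7, where 22.5% of genes were called, had too few Car4 UMIs for the test. These sets of clusters were chosen after the levels had been seen.

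High mitochondrial content moved with Car4 and Car1 in the colon. Cells with over 10% mitochondrial UMIs made up 10.9% and 8.93% of kept cells in DC 1 and DC 2 and held 62.5% and 63.1% of their Car4 UMIs and 57.4% and 41.2% of their Car1 UMIs, but 5.23% and 5.35% of their Car2 UMIs. In Si8 such cells were 2.88% and 4.60% of cells and held 1.89% and 4.87% of Car4 UMIs. With a limit of 10% in place of 20%, the Car4 difference between regions was -0.14 over all cells (adjusted p = 0.712), -0.47 in absorptive-like cells (adjusted p = 0.214) and 1.67 in goblet-like cells (adjusted p = 0.00862). This limit also changed the make-up of the sums, taking 64.4% (DC 1), 51.3% (DC 2), 7.55% (Si8 1) and 8.33% (Si8 2) of cluster 9. Car4 CPM in the cluster 9 cells left was 1645 (DC 1), 519 (DC 2), 101 (Si8 1) and 111 (Si8 2). Cluster 4 went the other way, at 4.09 (DC 1), 7.79 (DC 2), 84.9 (Si8 1) and 65.2 (Si8 2). Neither cluster was tested alone at this limit, nor was cluster 8. The median mitochondrial share of cluster 8 was 10.7% and 11.3% in DC, but 1.20% and 1.72% in Si8. Cells over 10% made up 56.0% and 61.1% of it in DC, and 0.683% and 1.89% in Si8. Cluster 8 cells of at most 10% held Car4 at 133 and 75.8 CPM in DC and at 2.61 and 1.30 CPM in Si8. Barcodes over the 20% limit, which were left out throughout, held Car4 at 1482 and 735 CPM in DC (501 and 621 UMIs). The part of mitochondrial content in the Car4 difference was not tested beyond this. Car1, Car2, Car8 and Car12 kept their direction and their calls at the 10% limit in all cells and in absorptive-like cells.

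**Figure D2:**
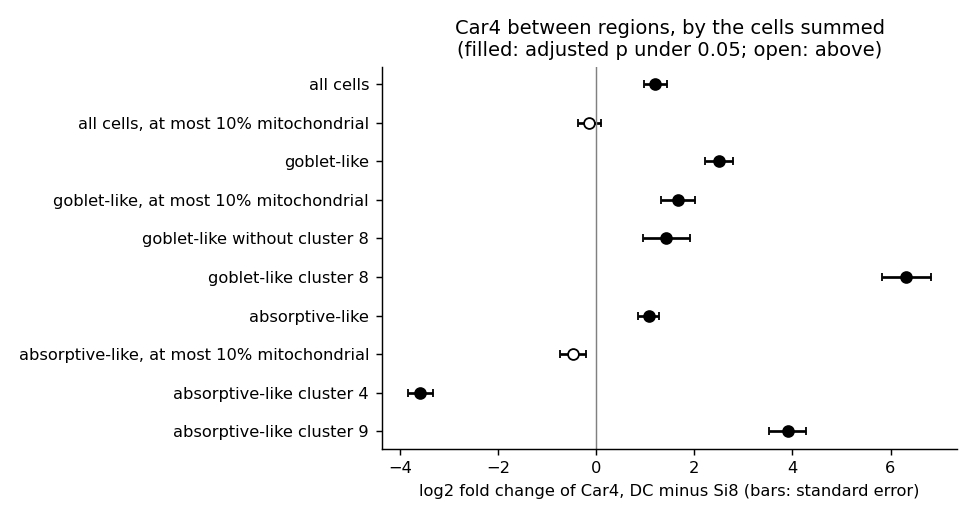
Log2 fold change of Car4, DC minus Si8, with standard error bars, for the cells named on the left; filled points passed an adjusted p of 0.05. The value runs from -3.58 in cluster 4 to 6.32 in cluster 8, and both sums limited to 10% mitochondrial UMIs that hold absorptive-like cells lie just below 0.

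Within the colon, Car1 and Car4 marked cluster 9, while Car2 was spread over all clusters. Absorptive-like minus goblet-like in DC, Car1 differed by 4.42 ± 0.16 SE (adjusted p = 8.68e-10), Car4 by 3.78 ± 0.25 SE (adjusted p = 2.74e-08) and Car2 by 0.90 ± 0.09 SE (adjusted p = 2.36e-06). Car8 differed by -1.34 ± 0.32 SE (adjusted p = 0.00383), on 23 UMIs in absorptive-like cells, and Car12 by 0.45 ± 0.44 SE (adjusted p = 0.472), so that 4 of the 5 members passed, beside 38.7% of the 12583 genes tested. The Car8 call was lost with cells cut to 2000 UMIs (-0.11, adjusted p = 0.946).

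The order of Car1 levels over the DC clusters with at least 20 cells per library was steep. Cluster 9 held 3372 and 2652 CPM, cluster 8 held 271 and 171 CPM, cluster 4 held 128 and 104 CPM and cluster 2 held 20.7 and 19.9 CPM, with no overlap between neighbours. The other 6 clusters lay between 3.87 and 17.3 CPM and overlapped one another. Cluster 9 held 63.5% and 70.4% of all Car1 UMIs of DC 1 and DC 2, in 45 and 193 cells. Cluster 9 minus cluster 4, Car1 differed by 4.81 ± 0.18 SE (adjusted p = 9.17e-51). In this contrast 2 of the 5 members, Car1 and Car4, passed in DC, beside 29.5% of the 9977 genes tested.

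Car4 stood at 2337 and 1160 CPM in cluster 9, at 201 and 293 CPM in cluster 8 and at 1.68 to 12.6 CPM in the other 8 DC clusters, cluster 4 among them. Cluster 9 held 82.0% and 76.8% of the Car4 UMIs of the DC libraries, and cluster 9 minus cluster 4 gave 7.87 ± 0.23 SE (adjusted p = 1.83e-62). Among cells of at most 10% mitochondrial UMIs the gap was still there, at 1645 and 519 CPM in cluster 9 and 4.09 and 7.79 CPM in cluster 4. The median mitochondrial share in cluster 9 was 13.3% and 10.1%, and in cluster 4 it was 5.85% and 5.45%.

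Car2 was highest in absorptive-like clusters 4 (955 and 852 CPM) and 9 (805 and 870 CPM), which overlapped and whose difference did not pass (0.02 ± 0.15 SE, adjusted p = 0.943). Clusters 2, 1, 7, 3, 10 and 6 followed between 346 and 646 CPM, each overlapping its neighbour in this order. Cluster 5 (291 and 229 CPM) and then cluster 8 (193 and 170 CPM) lay below all of them without overlap. Against the mean of the other goblet-like clusters, cluster 8 differed by -0.94 ± 0.14 SE (adjusted p = 5.63e-06) and cluster 5 by -0.73 ± 0.11 SE (adjusted p = 5.79e-06), while cluster 2 differed by 0.73 ± 0.10 SE (adjusted p = 9.02e-06), cluster 1 by 0.65 ± 0.09 SE (adjusted p = 6.11e-05) and cluster 7 by 0.29 ± 0.10 SE (adjusted p = 0.039). For clusters 1, 2 and 7 that mean included the low clusters 5 and 8, and contrasts without them were not run. The shares of genes called in the contrasts above were 31.7% for cluster 8, 35.7% for cluster 5, 5.89% for cluster 2, 6.97% for cluster 1 and 19.6% for cluster 7.

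**Figure D3:**
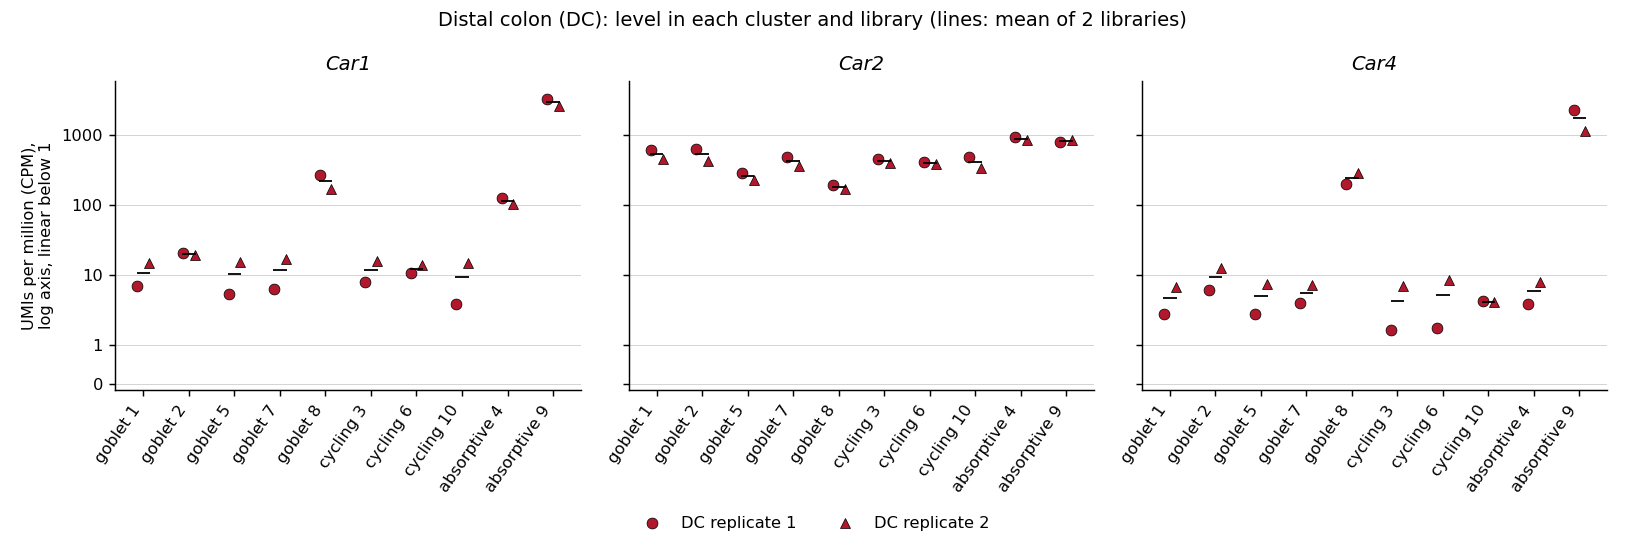
CPM (log axis, linear below 1) of Car1, Car2 and Car4 in each distal colon cluster of at least 20 cells per library, 1 point per library and a line at the mean. Car1 and Car4 rise far above the other clusters in clusters 9 and 8, Car1 but not Car4 in cluster 4, and Car2 lies between 170 and 955 CPM everywhere.

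Among colonic goblet-like clusters, Car1 and Car4 had their highest levels in cluster 8, carried by a minority of its cells. Against the mean of the other goblet-like clusters in DC, Car1 there differed by 4.29 ± 0.26 SE (adjusted p = 3.37e-12) and Car4 by 5.59 ± 0.17 SE (adjusted p = 4.52e-20), and with Car2, given above, 3 of the 5 members passed, beside 31.7% of the 11031 genes tested. The median cell of cluster 8 held 0 UMIs of either gene in both DC libraries, 60.3% to 66.4% of its cells held none, and the tenth part of its cells with the most UMIs held 68.5% and 73.1% of its Car1 and 59.3% and 77.3% of its Car4. Cluster 8 held 146 of 263 and 108 of 508 goblet-like Car1 UMIs in DC 1 and DC 2, and 108 of 154 and 185 of 383 of those of Car4. The 229 DC cells of cluster 8 had median depths of 4080.5 and 4164 UMIs and median mitochondrial shares of 10.7% and 11.3%. Cluster 8 cells of at most 10% mitochondrial UMIs held 141 and 94.7 CPM of Car1 and 133 and 75.8 CPM of Car4. The 25 colonic absorptive markers together took 20882 and 17642 CPM in cluster 8, against 4824 to 9999 CPM in DC clusters 1, 2, 5 and 7 and 39098 and 38054 CPM in cluster 9, and their part in the result was not tested. The goblet markers took 237234 and 222632 CPM there, more than in any other DC cluster. The Car4 contrast differed between regions by 4.61 ± 0.69 SE (adjusted p = 4.41e-05, beside 8.26% of genes called), and without Si8 2 it was 2.49 (adjusted p = 1).

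Outside clusters 4, 8 and 9, Car1 and Car4 were low in the colon. A Car1 UMI was found in 5.29% to 17.8% of the cells of goblet-like clusters 1, 2, 5 and 7 and in 5.60% to 22.4% of the cells of the cycling-like clusters, whose median depths were 9853 to 14237 and 15330 to 22235 UMIs. Cut to 2000 UMIs, no cluster of these 7 passed 3.97% for Car1 or 2.93% for Car4, against 77.8% and 80.3% for Car1 and 71.1% and 44.0% for Car4 in cluster 9. The part of free RNA in these shares was not tested. Cluster 4 stood apart for Car1 alone. Its ratio of Car1 to Car4 UMIs was 33.5 (95% exact counting interval 18.5 to 67.6) in DC 1 and 12.9 (10.5 to 16.2) in DC 2, against 1.44 (1.32 to 1.58) and 2.29 (2.17 to 2.41) in cluster 9 and 1.35 (1.05 to 1.75) and 0.584 (0.456 to 0.744) in cluster 8. The 36.8% and 39.1% of cluster 4 cells with a Car1 UMI, 14.4% and 13.7% when cut to 2000 UMIs, held up to 47 and 78 UMIs in a cell.

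Within cluster 9 of the colon the members were not spread alike over cells. The median cell held 13 and 16 Car1 UMIs, and 13.3% and 5.70% of cells held none. For Car4 the median was 16 and 1 UMIs, and 80% and 58.5% of cells held at least 1. In DC 2, the 85 cells with a Car4 UMI after cutting to 2000 UMIs held 4029 CPM of Car1 and 596 CPM of Car2, and the 108 without held 1860 and 1028 CPM. In DC 1, the 32 cells with one held 5065 CPM of Car1 and 547 CPM of Car2, and the 13 without held 1267 and 1127 CPM. By summed CPM, cells with Car4 thus held more Car1 and less Car2 in both libraries, as a description with no test. Counted by cells cut to 2000 UMIs, Car4 was found in 71.4% (DC 1) and 48.4% (DC 2) of cells with Car1. Among cells without Car1 it was found in 70% and 26.3%. The median mitochondrial share was 13.9% and 12.1% in cells with Car4, against 7.78% and 8.57% in those without. Median depths were 5976 and 8103 UMIs in cells with Car4, against 13459 and 10664 UMIs in those without. The water channel gene Aqp8 stood at 1641 and 1140 CPM in the cells with Car4 and at 0 and 48.9 CPM in those without.

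In Si8, Car4 was a gene of both absorptive-like clusters. It stood at 101 and 112 CPM in cluster 9 and at 83.7 and 65.1 CPM in cluster 4, and without overlap below these at 8.83 and 11.7 CPM in cycling-like cluster 3 and 4.50 and 7.28 CPM in cluster 6, with the other 6 clusters of at least 20 cells per library between 0 and 3.38 CPM. Absorptive-like minus goblet-like in Si8, Car4 differed by 5.27 ± 0.37 SE (adjusted p = 2.44e-08). Car1 and Car2 had 0 UMIs in both of these clusters and could not pass between them. Cluster 9 minus cluster 4, Car4 differed by 0.68 ± 0.19 SE (adjusted p = 0.00636), the single member to pass, beside 15.9% of genes called. This call was lost without Si8 replicate 2 (0.39, adjusted p = 0.553), and with cells cut to 2000 UMIs the value was -0.23 (adjusted p = 0.818).

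In Si8, Car8 was highest in part of the goblet-like and cycling-like clusters and lowest in goblet-like cluster 8. Among clusters of at least 20 cells per library, goblet-like cluster 5 (210 and 224 CPM) and cycling-like cluster 10 (221 and 185 CPM) led and overlapped. Next came goblet-like clusters 1 (124 and 176 CPM) and 7 (110 and 186 CPM), which overlapped each other, cluster 7 also reaching cluster 10, and then cluster 6 (95.3 and 87.7 CPM). Clusters 3 (69.3 and 64.2 CPM) and 2 (52.7 and 66.2 CPM) overlapped. Clusters 4 (30.8 and 34.5 CPM), 9 (18.1 and 24.3 CPM) and 8 (9.08 and 17.9 CPM) were lowest and did not overlap. Among goblet-like clusters of Si8, Car8 passed in each contrast with the mean of the others. For clusters 1, 2, 5 and 7 that mean included cluster 8, the lowest, and contrasts without it were not run. It differed by 1.39 ± 0.10 SE in cluster 5 (adjusted p = 3.07e-11, beside 43.2% of genes called), by 0.92 ± 0.11 SE in cluster 1 (adjusted p = 3.59e-06, beside 10.8%) and by 0.94 ± 0.14 SE in cluster 7 (adjusted p = 8.71e-05, beside 7.35%). It differed by -0.45 ± 0.12 SE in cluster 2 (adjusted p = 0.0132, beside 9.15%), a call lost without Si8 replicate 2 (-0.37, adjusted p = 0.22), and by -2.80 ± 0.19 SE in cluster 8 (adjusted p = 9.66e-13, beside 50.2%).

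Cluster 5 was led by the immunoglobulin gene Igkc and the lectin gene Reg4. Its 18 immune markers together took 290 and 50 CPM in Si8, with 16 and 14 of them detected, against at most 10.4 CPM in goblet-like clusters 1, 2, 7 and 8 of Si8, and their part in the Car8 level was not tested. In absorptive-like cells of Si8 Car8 was lower than in goblet-like cells (-2.44 ± 0.12 SE, adjusted p = 8.67e-10). It was lower in cycling-like cells as well (-0.99 ± 0.10 SE, adjusted p = 4.37e-07), although cycling-like cluster 10, whose goblet markers took 100760 and 96413 CPM against 44873 to 67810 CPM in clusters 3 and 6, overlapped cluster 5 in Car8.

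Car12 was highest in cycling-like clusters 6 and 3 of both regions, and cycling-like cluster 10 was low. In Si8 it stood at 30.8 and 21.8 CPM in cluster 6, led by replication genes such as Mcm6 and Hells, then at 15.6 and 18.1 CPM in cluster 3, 10.7 and 11.8 CPM in cluster 4 and 5.16 and 9.34 CPM in cluster 9, with no overlap between neighbours. In DC it stood at 7.01 and 5.48 CPM in cluster 6 and 2.94 and 4.48 CPM in cluster 3, again without overlap. There cluster 3 overlapped absorptive-like cluster 9 (0 and 3.74 CPM). Cluster 10 held 2.77 and 5.94 CPM in Si8 and at most 1.5 CPM in DC, within or below the range of absorptive-like clusters 4 and 9. Cycling-like cells held 77.1% and 69.9% of the Car12 UMIs of the DC libraries and 62.7% and 74.6% of those of the Si8 libraries. Of the UMIs of all genes they held 37.8% and 38.6% in DC and 19.6% and 35.8% in Si8. Car12 UMIs numbered 48 and 156 in DC and 142 and 461 in Si8. Cycling-like minus goblet-like, Car12 differed by 2.01 ± 0.30 SE in DC (adjusted p = 4.92e-05) and by 3.17 ± 0.23 SE in Si8 (adjusted p = 1.94e-08). Absorptive-like minus goblet-like, it differed by 2.49 ± 0.29 SE in Si8 (adjusted p = 4.93e-06). This contrast differed between regions for Car12, Car4 and Car2, 3 of the 5 members, beside 20.9% of genes called, and each of the 3 calls was lost when certain single libraries were left out. For Car1, with 0 UMIs in Si8, such a difference could not be estimated.

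Against goblet-like cells, 4 of the 5 members passed in cycling-like cells of DC, beside 52.1% of genes, and 4 of 5 in cycling-like cells of Si8, beside 63.3%. Car1 had 0 UMIs in Si8, so it could not pass in any contrast within that region. In absorptive-like cells of Si8, 4 of 5 passed, beside 46.5% of genes. Car2 was among them, on 14 UMIs in goblet-like cells and 0 in absorptive-like cells. It was also among the 4 in cycling-like cells of Si8 (-2.27 ± 0.87 SE, adjusted p = 0.0358), with 1 UMI in each of clusters 3 and 6. Besides Car12, cycling-like cells of DC differed by -0.95 ± 0.19 SE for Car1 (adjusted p = 0.000915), -1.54 ± 0.33 SE for Car4 (adjusted p = 0.00116) and -0.30 ± 0.09 SE for Car2 (adjusted p = 0.0113). The Car2 call was lost without DC replicate 1 (-0.11, adjusted p = 0.535) and with library totals alone (-0.06, adjusted p = 0.615). Car4 differed by 1.74 ± 0.48 SE in cycling-like cells of Si8 (adjusted p = 0.00557), a call lost without Si8 replicate 2 (adjusted p = 0.203) and with cells cut to 2000 UMIs (0.67, adjusted p = 0.499).

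**Figure D4:**
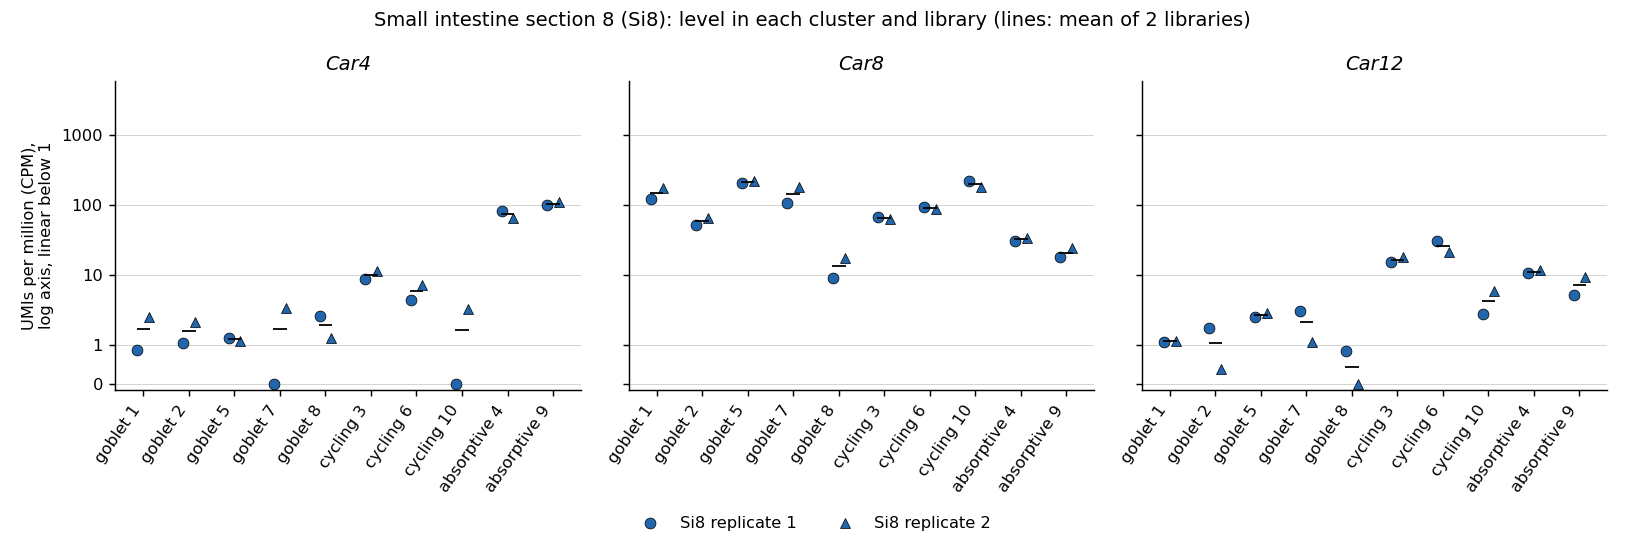
CPM (log axis, linear below 1) of Car4, Car8 and Car12 in each Si8 cluster of at least 20 cells per library, 1 point per library and a line at the mean. Car4 is highest in absorptive-like clusters 4 and 9, Car8 in goblet-like cluster 5 and cycling-like cluster 10, and Car12 in cycling-like cluster 6.

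All 11 other family genes had at least 1 UMI in kept cells. Car9, a transmembrane enzyme known for its response to low oxygen, stood at 15.6 and 20.7 CPM over DC cells and at 10.2 and 21.2 CPM over Si8 cells, which overlapped (-0.19 ± 0.33 SE, adjusted p = 0.719). It was higher in absorptive-like than in goblet-like cells by 1.56 ± 0.11 SE in DC (adjusted p = 5.71e-08) and by 2.74 ± 0.13 SE in Si8 (adjusted p = 3.87e-10). Car13, a cytosolic enzyme next to Car1 on the chromosome, stood at 1.45 and 2.97 CPM in DC and at 3.57 and 6.88 CPM in Si8 and was lower in DC (-1.61 ± 0.45 SE, adjusted p = 0.0473). It was higher in absorptive-like than in goblet-like cells by 2.91 ± 0.30 SE in DC (adjusted p = 2.45e-06) and by 3.13 ± 0.24 SE in Si8 (adjusted p = 6.13e-08). Car3, a cytosolic enzyme of low activity, stood at 0.647 and 0.588 CPM in DC and at 0.0785 and 0.0382 CPM in Si8 (3.09 ± 0.58 SE, adjusted p = 0.0142), on 54 and 4 UMIs. Car11, another relative without the catalytic activity, had 57 UMIs in DC and 1 in Si8, a ratio of 49.7 with an exact counting interval of 8.57 to 1997 (adjusted p = 0.0204). Car5b, a mitochondrial enzyme, did not pass at 0.647 and 0.413 CPM in DC and at 0.0785 and 0.191 CPM in Si8 (adjusted p = 0.132). Car5a, Car6, Car7, Car10, Car14 and Car15 had 1 to 17 UMIs in DC and 0 to 12 in Si8 and were not tested.

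Genes of ion and water transport were counted beside the members from lists that earlier results had informed. DC minus Si8 in goblet-like cells, 7 of 11 tested bicarbonate and chloride transport genes were higher and 1 lower, with a median log2 fold change of 1.14 beside 0.05 over all tested genes. With library totals alone 8 were higher and 0 lower, with medians of 1.66 and 0.57. Of all genes tested in goblet-like cells, 20.4% were higher and 21.8% lower, and with library totals 54.2% and 10.4%. The largest were Best2, a bicarbonate-permeable channel, at 311 ± 51.0 CPM (SD, n = 2) in DC and at 0 UMIs in Si8 (at least 3979-fold higher, adjusted p = 1.97e-05), Ano1, a calcium-gated chloride channel (2.83 ± 0.23 SE, adjusted p = 0.000252), and Slc4a7, a sodium-bicarbonate cotransporter (2.23 ± 0.13 SE, adjusted p = 7.83e-05). Of 13 proton and sodium transport genes, 6 were higher and 2 lower (median 0.31), and with library totals 11 and 1. They were led by Atp12a, the proton-potassium pump of the colon, at 123 and 46.9 CPM in DC and 0 UMIs in Si8 (at least 1087-fold higher, adjusted p = 0.000785), Scnn1b, a sodium channel subunit (at least 141-fold higher, adjusted p = 0.000567), and Slc9a3r1, a scaffold of sodium-proton exchange (-2.27 ± 0.13 SE, adjusted p = 7.27e-05). Of 9 short-chain fatty acid and water transport genes, 4 were higher and 3 lower (median 0.25), with library totals 6 and 1, and among those with 10 CPM in a region Bsg alone passed (-0.38 ± 0.11 SE, adjusted p = 0.0317), with CPM of 439 ± 8.04 in DC and 398 ± 0.229 in Si8 (SD, n = 2) in the other direction.

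In absorptive-like cells against goblet-like cells, 6 of 11 bicarbonate and chloride genes were higher and 3 lower in DC (median 0.77), and 7 higher and 3 lower in Si8 (median 3.55), beside a median of -0.01 over all genes in Si8. Of all genes tested, 20% were higher and 18.7% lower in DC and 22.5% and 24% in Si8, and with library totals 28.1% and 12.7%, and 44.9% and 12.1%. Slc26a3, the chloride-bicarbonate exchanger of the colon, differed by 4.53 ± 0.19 SE in DC (adjusted p = 4.23e-10) and 5.83 ± 0.31 SE in Si8 (adjusted p = 1.55e-09). Cftr, the chloride and bicarbonate channel, differed by 3.37 ± 0.19 SE in DC (adjusted p = 5.64e-09) and 4.28 ± 0.23 SE in Si8 (adjusted p = 1.79e-09). Also among the 3 largest were Clcn2 in DC, a chloride channel (2.96 ± 0.14 SE, adjusted p = 1.02e-09), and Slc26a6 in Si8, a further chloride-bicarbonate exchanger (4.95 ± 0.23 SE, adjusted p = 3.26e-10).

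Of 14 proton and sodium transport genes, 2 were higher and 7 lower in absorptive-like cells of DC (median -0.29), and 4 higher and 3 lower in those of Si8 (median 0.05). With library totals 3 were higher and 5 lower in DC, and 7 and 2 in Si8. Slc9a2, a sodium-proton exchanger, differed by 4.58 ± 0.26 SE in DC (adjusted p = 5.88e-09) and 3.30 ± 0.23 SE in Si8 (adjusted p = 2.87e-08). The next in DC were Slc9a3r2 at -1.80 ± 0.19 SE (adjusted p = 2.21e-06) and Scnn1b at -1.53 ± 0.22 SE (adjusted p = 0.000131). In Si8, Scnn1a, a sodium channel subunit, differed by -1.78 ± 0.15 SE (adjusted p = 2.17e-07). Of 9 fatty acid and water transport genes, 4 were higher and 2 lower in DC (median 0.52) and 4 higher and 1 lower in Si8 (median 0.06). In DC the largest were Slc5a8, a sodium-coupled fatty acid carrier (5.04 ± 0.22 SE, adjusted p = 4.48e-10), Aqp4 (4.67 ± 0.16 SE, adjusted p = 4.52e-11) and Aqp8 (3.67 ± 0.27 SE, adjusted p = 2.87e-07), both water channels. In Si8 they were Slc5a8 (5.17 ± 0.33 SE, adjusted p = 1.06e-08), Aqp11 (0.94 ± 0.11 SE, adjusted p = 5.89e-06) and the lactate carrier Slc16a1 (0.86 ± 0.12 SE, adjusted p = 2.63e-05).

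Likeness of pattern was measured by the Pearson correlation of log2(CPM + 1) over 19 sums of a cluster and library in each region, each of at least 50 cells (so without cluster 9 of DC 1 and cluster 10 of Si8 1), among 5176 genes in DC and 4538 in Si8 that averaged at least 20 CPM. Sums of a library share its depth and free RNA, so these are descriptions. In DC the genes most like Car1 were Prdx6 (r = 0.98), Fxyd4 (0.97) and Tgm3 (0.97). Those most like Car4 were Aqp8 (0.98), Saa1 (0.95) and Crip1 (0.94), and those most like Car2 were Fbxw11 (0.90), Cpt1a (0.89) and Ctse (0.87). Among the members, Car1 and Car4 had r = 0.87, Car1 and Car2 had 0.14 and Car2 and Car4 had -0.20. In Si8 the genes most like Car4 were Dgat1 (0.98), Ces2e (0.97) and Hkdc1 (0.96), those most like Car8 were Yif1b (0.99), Hilpda (0.98) and Hpd (0.98), and Car4 and Car8 had r = -0.51.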

How the data were processed

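The deposited values are raw UMI counts for genes in cell barcodes. Cell Ranger 2.1.1 and the build mm10 were used by the authors, per the submitters' processing notes. Kept were 10522 of 10827 barcodes, those that reached 500 genes with no more than 20% mitochondrial UMIs. From these, 279 were removed by Scrublet score (scanpy 1.11.5), in numbers that rose with library size, since its own threshold marked 0.111%. The 2000 most variable genes, without carbonic anhydrase and transport genes, were scaled within each library and gave 30 components. Leiden clustering (leidenalg 0.10.2, resolution 1) joined each cell to 5 neighbours per library. Clusters were named "-like" from markers among their 50 top genes. UMIs were summed per library, class or cluster (at least 20 cells) and tested with edgeR 4.0.16 (quasi-likelihood, TMM, filterByExpr minimum 10, Benjamini-Hochberg 0.05), classes and clusters with library as a block. Each SE (standard error) was derived as the absolute log2 fold change over the square root of the edgeR F value, and was not fitted directly. The scripts were tested on simulated data. Folds carry TMM factors: the median over all genes, DC minus Si8, was 0.04, 0.05 and 0.03 in all, goblet-like and absorptive-like cells, and 0.45, 0.57 and 0.24 with library totals alone. The other genes named are the rest of the family, the 3 of each transport list with the largest change at 10 CPM or more, and the 3 most alike in pattern at 20 CPM or more; a gene that this rule names is not reported here. Members and lists were chosen with earlier results of these data known. Identifiers were found in GENCODE M21 for 28341 of 28694 genes (98.8%). Alternatives were DESeq2 1.42.0, library totals, no filter, a block, left-out libraries, cells cut to 2000 UMIs, other cell filters and other clusterings.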

Additional observations from a re-analysis of the deposited data

Results flagged for a closer look

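In 3 contrasts between cell groups, a test of the difference between DC and Si8 passed for a member, with 5 values to look at again. The absorptive-like minus goblet-like contrast differed between regions, DC minus Si8, by -2.05 for Car12 (adjusted p = 0.0121), by -1.49 for Car4 (adjusted p = 0.049) and by 6.41 for Car2 (adjusted p = 0.0255), beside 20.9% of genes called. In Si8 the Car2 value rests on 14 UMIs in goblet-like cells and 0 in absorptive-like cells. Its call was lost without Si8 replicate 1 and without Si8 replicate 2. The Car12 value was -0.92 without DC replicate 2 (adjusted p = 0.646) and -1.44 without Si8 replicate 2 (adjusted p = 0.178). The Car4 value was -0.93 without DC replicate 2 (adjusted p = 0.0605), -1.18 without Si8 replicate 1 (adjusted p = 0.198) and -2.01 without Si8 replicate 2 (adjusted p = 0.121).

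The contrast of goblet-like cluster 8 with the other goblet-like clusters differed between regions for Car4 by 4.61 (adjusted p = 4.41e-05), beside 8.26% of genes called. In Si8 that cluster held 6 and 2 Car4 UMIs, and without Si8 replicate 2 the value was 2.49 (adjusted p = 1). The contrast of absorptive-like cluster 9 with cluster 4 differed for Car4 by 7.19 (adjusted p = 2.53e-46). Both contrasts were chosen after the levels by cluster had been seen.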

How the results depend on the processing

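Direction and call of Car1, Car2 and Car8 between regions held in all, goblet-like and absorptive-like cells under every alternative in which they could be tested, and Car12 stayed below the threshold in goblet-like cells. In cluster 7 alone 2 members were tested and 2 called, and with cells cut to 2000 UMIs 3 were tested and 3 called in absorptive-like cells. Genes called between regions over all cells went from 3256 to 5136 with library totals, to 1733 with cells cut to 2000 UMIs, and from 1404 to 3967 with 1 library left out. In goblet-like cells they went from 5035 to 7708, to 2225, and to 2217, 1816 and 981 in clusters 5, 7 and 8 alone. In absorptive-like cells they went from 3612 to 1023 with cells cut, to 1477 in cluster 9 alone, and from 2495 to 4103 with 1 library left out. Over all class contrasts, calls went from 27865 to 18442 without the library block and 12522 with cells cut, and member calls from 19 to 12 with cells cut. Over the goblet-like cluster contrasts within DC and within Si8 they went from 24332 to 15336 and 10745, and member calls from 19 to 12 without the block. For cluster 9 minus cluster 4 within each region they went from 4524 to 2130 and 1238, and from 2918 to 3982 with 1 library left out. Of the calls in the 17 other contrasts between classes, clusters or their regional differences, 45.8% to 87.1% were higher, and with library totals alone 21.4% to 90.9%. The fewer UMIs of cut cells left fewer genes to test; otherwise the cause was not tested.

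Values that changed sign were those of Car4 at the 10% mitochondrial limit (-0.14 over all cells, -0.47 in absorptive-like cells), in cluster 4 alone (-3.58) and, for cluster 9 minus cluster 4 in Si8, with cells cut (-0.23). Car12, absorptive-like minus goblet-like in DC, was -0.56 with cells cut, and Car2, cycling-like minus goblet-like in Si8, was 1.10 at resolution 0.6. There a cluster of 2203 cells took the Paneth-like name, against 70 cells in the main clustering. Without doublet removal a cluster of 1430 cells took it. The goblet-like class was smaller in both alternatives. Car2, cluster 9 minus cluster 4 in DC, was -0.10 with library totals, -0.028 without a filter, -0.22 with cells cut and -0.15 to 0.16 with 1 library left out. Over all cells, Car4 without DC replicate 2 gave 1.10 (adjusted p = 0.084). Deviations of libraries with the same replicate number correlated at 0.29 across genes over all cells. With 2 pairs, whether the replicate number pairs the libraries cannot be told. With the replicate block, 4277, 6056 and 4402 genes were called between regions in all, goblet-like and absorptive-like cells, and 5, 4 and 5 members. By rank correlation, 1 or 2 of the 3 genes most like a member were the same for each member.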

Other observations

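The barcodes left out by the mitochondrial limit of 20% numbered 78 and 180 in DC and 27 and 19 in Si8. In DC they held Car1 at 867 and 527 CPM and Car4 at 1482 and 735 CPM, above the 74.0 and 112 CPM and the 39.7 and 44.9 CPM of the kept cells. Their Car2 stood at 379 and 334 CPM, below the 540 and 483 CPM of the kept cells, and none held a Car8 UMI. Median depths of these barcodes were 3834.5 and 4129.5 UMIs. In Si8 they held 2 and 9 Car4 UMIs. These values are given with no test.

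Enteroendocrine-like cells were too few to test, with 1 and 17 cells in DC and 4 and 11 in Si8. Car8 stood at 346 and 214 CPM in the Si8 cells, from 15 and 68 UMIs. Paneth-like cells of Si8, 15 and 42 in number, held Car8 at 48.5 and 36.1 CPM and no Car1 or Car2 UMI.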
